A study of Homo sapiens with 9 samples.

Results

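The 8 apolipoprotein genes APOA1, APOA2, APOB, APOC1, APOC3, APOE, APOH and APOM were followed through a cross-linking and immunoprecipitation (eCLIP) experiment on malate dehydrogenase 2 (MDH2), a mitochondrial enzyme of the TCA cycle. They were chosen by name, as Ensembl identifiers matched to GENCODE symbols. The rule uses no measured value, but the choice was made with earlier results of these data known. Of the 8 genes, 7 had windows in the count table, with 2916 windows of 15767969 in all. No window was listed for APOM under its identifier, and of the 64 protein-coding genes within 500 kb of it 10 had one, a share of 15.6% against 85.9% of all protein-coding genes. APOM was therefore not analysed here.

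All libraries came from Huh7, an established human hepatocarcinoma line, irradiated with UV light so that proteins became covalently joined to the RNA they touched. There were 3 libraries from an MDH2 immunoprecipitation (MDH2 IP), 3 from an isotype-matched IgG immunoprecipitation (IgG IP), and 3 from size-matched input (SMI), a fraction of the lysate that was set aside before the antibody step and is meant to show the RNA present in the same gel region. Both kinds of IP library went through 14 cycles of PCR but SMI through 9, so that cycle number and the IP step cannot be told apart when either IP is set against SMI. The labels named no treatment or edit in any group and did not say whether replicates were separate cultures, so that p-values measure the spread between these libraries, which may be technical. Each count was a cross-link site in a window of 50 nt. Windows started every 20 nt and a site could fall in up to 3 of them. Totals over all windows ran from 5899767 to 9482209 in the MDH2 IP, from 8311027 to 9788461 in SMI and from 1631220 to 2942624 in the IgG IP, so that the IgG IP was the least deep.

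Apolipoproteins are the protein shell of lipoproteins, the particles that carry cholesterol and triglycerides through plasma, and hepatocytes are their main source. APOB is the structural protein of very-low-density and low-density lipoproteins, APOA1 and APOA2 are those of high-density lipoproteins, APOE is the ligand by which remnants are taken up through the LDL receptor family, APOC1 and APOC3 hold back lipase action and particle uptake, APOH (β2-glycoprotein I) binds anionic phospholipids, and APOM carries sphingosine-1-phosphate. Because they are secreted, their mRNAs are translated at the endoplasmic reticulum. Levels are given below as counts scaled to a library of 1000000 (CPM). Huh7 is of hepatocyte origin, and 10 hepatocyte and hepatoma markers summed to 3507 to 4700 CPM in the MDH2 IP, 2937 to 3787 CPM in SMI and 2142 to 3001 CPM in the IgG IP, with AFP at 348 to 1199.5 CPM and ALB at 195 to 711 CPM over the 9 libraries. The 7 markers of other cell types summed to 80.7 to 117 CPM, 68.0 to 86.3 CPM and 25.7 to 48.9 CPM in the same order, most of it LYZ at 20.6 to 102 CPM, and KRT5, PTPRC and COL1A1 were at or near 0. Both sums were lowest in the IgG IP, and their part in the comparisons with it was not tested.

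The windows on which the comparisons below turn differed in base composition, and 6 of them are printed here as DNA in the sense of the mRNA, with G and C in capitals. Window W164 of APOE exon 4 lies at chr19:44909033-44909082 (GRCh38, plus strand) and covers codons 246 to 262, window W160 lies at chr19:44908953-44909002 and covers codons 219 to 236, and these had the smallest adjusted p-values of APOE for the MDH2 IP over SMI. The APOA1 window (W17, exon 3, chr11:116836071-116836120, minus strand, codons 164 to 181) and the APOA2 window (W46, chr1:161223178-161223227, minus strand, an intron of the canonical transcript that other transcripts retain) had the highest fold changes of the coding and intron windows of their genes. The last pair comes from APOB exon 27 on the minus strand and shows its lowest fold change (W444, chr2:21010300-21010349, codons 2173 to 2190) and its highest (W286, chr2:21007140-21007189, codons 3227 to 3243).
APOE W164: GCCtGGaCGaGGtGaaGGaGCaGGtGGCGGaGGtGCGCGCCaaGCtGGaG
APOE W160: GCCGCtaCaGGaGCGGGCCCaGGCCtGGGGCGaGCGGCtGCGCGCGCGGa
APOA1 W17: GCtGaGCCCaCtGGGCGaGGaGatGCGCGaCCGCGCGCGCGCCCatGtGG
APOA2 W46: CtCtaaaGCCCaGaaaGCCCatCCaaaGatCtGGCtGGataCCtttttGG
APOB W444: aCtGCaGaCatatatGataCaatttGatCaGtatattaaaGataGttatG
APOB W286: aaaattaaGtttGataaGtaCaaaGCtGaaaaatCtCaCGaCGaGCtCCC
In the same order, their GC contents were 70%, 82%, 76%, 48%, 26% and 36%.

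To see how much of each library the apolipoprotein mRNAs took up, window counts were summed per gene. Together they held 0.456% ± 0.0752 (SD, n = 3) of all counts in the MDH2 IP, 0.440% ± 0.0644 in SMI and 0.238% ± 0.0783 in the IgG IP. The IgG IP libraries, at 0.166% to 0.321%, all lay below the other 6, while the MDH2 IP and SMI ranges overlapped. APOB gave 65.9% to 81.1% of the apolipoprotein counts in every library. It is by far the longest of these mRNAs, and per kb of merged exon its level in SMI was 221 ± 29.1 CPM of exon windows, below APOA2 at 626 ± 171 and above APOA1 at 79.0 ± 7.02 and APOE at 77.2 ± 27.4. On this scale the last pair did not differ beyond its spread. APOC1 (19.6 ± 2.65), APOC3 (7.77 ± 2.44) and APOH (7.001 ± 1.34) followed on the same scale, with APOC3 and APOH within each other's spread. Merged exons exceed the canonical mRNA by unlike amounts, with 2154 nt against 1166 nt in APOE and 942 nt against 474 nt in APOA2. In APOA1 they have 1096 nt against 899 nt, and in APOB 14828 nt against 14121 nt. Levels per kb of the canonical mRNA, which could order the genes otherwise, were not taken.

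**Figure D1:**
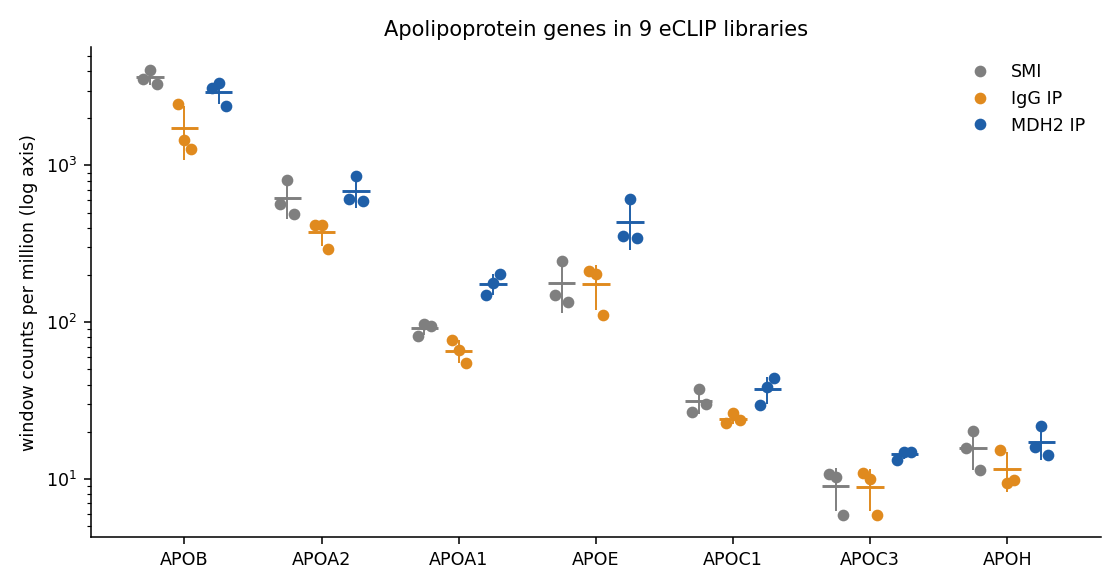
CPM (window counts, log axis) of the 7 measured apolipoprotein genes in the 9 libraries. Points are libraries, horizontal lines the mean and vertical lines the SD of 3 libraries. The MDH2 IP points of APOA1, APOE and APOC3 lie above all SMI and all IgG IP points of the same gene, while APOB is lower in the IgG IP than in SMI.

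APOE and APOA1 were the apolipoprotein mRNAs with more cross-link counts in the MDH2 IP than in SMI, by 2.56-fold and 1.99-fold, and none had fewer. For APOE, which mediates remnant uptake, the levels were 356, 610 and 346 CPM in the MDH2 IP against 150, 247 and 134 CPM in SMI. All 3 MDH2 IP libraries exceeded all 3 SMI libraries, and the second library of each group was the highest. The log2 fold change was 1.36 ± 0.29 (SE, adjusted p = 0.00817, edgeR quasi-likelihood test). For APOA1 the MDH2 IP libraries were at 149, 178 and 202 CPM and the SMI libraries at 82.3, 98.1 and 94.7 CPM. Here again the groups did not overlap, and the log2 fold change was 0.99 ± 0.16 (adjusted p = 0.00245). These 2 of 7 genes compare with 16.4% of all 17056 genes tested that were higher in the MDH2 IP and 17.9% that were lower. The 7 genes had a median log2 fold change of 0.30, and all genes one of -0.01.

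The other 5 genes did not pass. APOC3, the inhibitor of triglyceride lipolysis, was at 13.2 to 14.97 CPM in the MDH2 IP and 5.90 to 10.8 CPM in SMI, without overlap, at a log2 fold change of 0.72 ± 0.27 (adjusted p = 0.0644). Values for APOA2 (0.19 ± 0.22), APOC1 (0.30 ± 0.21) and APOH (0.18 ± 0.27) were within 1.5 SE of 0, and APOB was at -0.26 ± 0.16 (adjusted p = 0.246). Same-numbered MDH2 IP and SMI libraries deviated together, and with the replicate number as a block 5 genes passed. That fit called 9675 of all 17056 genes. APOA2 (0.20, adjusted p = 0.00724) and APOC3 (0.74, adjusted p = 0.00461) were then also higher and APOB was lower (-0.27, adjusted p = 7.06e-05), at nearly the same fold changes.

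The IgG IP served as the second control, to ask which of these counts needed the MDH2 antibody. APOA1, APOE and APOA2 had more counts in the MDH2 IP than in the IgG IP, and all 7 genes had a fold change above 0. The APOA1 levels in the IgG IP were 76.9, 66.4 and 54.6 CPM, which gave a log2 fold change of 1.36 ± 0.20 (adjusted p = 0.00442) for the MDH2 IP. APOE was at 214, 204 and 112 CPM in the IgG IP (1.25 ± 0.30, adjusted p = 0.0263), and APOA2 at 417, 417 and 294 CPM against 611, 861 and 591 CPM in the MDH2 IP (0.81 ± 0.22, adjusted p = 0.0378). None of these 3 genes overlapped between the groups. Of all 15491 genes tested, 4.64% were higher in the MDH2 IP than in the IgG IP and 7.77% were lower. APOB followed at 0.71 ± 0.26 (adjusted p = 0.0961), and its IgG IP libraries were at 2475, 1451 and 1280 CPM, with the first of them above the lowest MDH2 IP library at 2386 CPM.

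The calls over the IgG IP rested on what the libraries were scaled to. When exon windows alone were summed and the libraries were scaled to them, the log2 fold changes over the IgG IP fell to 0.80 for APOA1 (adjusted p = 0.0766), 0.71 for APOE (adjusted p = 0.234) and 0.22 for APOA2 (adjusted p = 0.659), and no apolipoprotein gene passed, with 264 of 12572 genes called in all. The same exon counts with the scaling of all windows gave 1.39 for APOA1 (adjusted p = 0.0106), 1.31 for APOE (adjusted p = 0.0237) and 0.83 for APOA2 (adjusted p = 0.0401), and all 3 passed, but on that scale the median of all 12572 genes was 0.63. Over SMI, exon windows scaled to themselves kept both calls, at 1.02 for APOE and 0.65 for APOA1, and APOB passed as lower (-0.65, adjusted p = 0.0277). Leaving out the first or the second MDH2 IP library or IgG IP replicate 3 ended the calls of APOE (adjusted p up to 0.0698) and APOA2 (up to 0.103) over the IgG IP, leaving out either of the other IgG IP libraries ended that of APOA2, and leaving out IgG IP replicate 1 made APOB pass (adjusted p = 0.0267), whereas APOA1 passed without any 1 library (adjusted p from 0.0113 to 0.0176).

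Set against SMI, the IgG IP itself was lower for APOB, at a log2 fold change of -0.88 ± 0.24 (adjusted p = 0.0222), and no apolipoprotein gene was higher. APOE was at 0.20 ± 0.30 and APOA1 at -0.27 ± 0.18. Over all 15708 genes tested, 16.4% were higher in the IgG IP and 11.4% were lower. The APOB call was lost on leaving out the first or second SMI library or IgG IP replicate 2 or 3, with adjusted p-values up to 0.0779.

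Fold changes over SMI went with base composition in both immunoprecipitations. Over 13035 protein-coding genes the GC content of the mRNA and the log2 fold change of the MDH2 IP over SMI correlated at r = 0.594, for the IgG IP over SMI at 0.610 (12384 genes), and for the MDH2 IP over the IgG IP at -0.140 (12505 genes). These are correlations across genes, which are not independent replicates. With the genes cut by GC content into 5 groups of equal size, the median log2 fold change of the MDH2 IP over SMI went from -0.53 in group 1 to 0.78 in group 5. The mRNAs of APOE (69.0% GC), APOA1 (63.0%) and APOC3 (59.1%) belong to group 5, APOC1 (57.8%) and APOA2 (53.4%) to group 4, and APOB (43.5%) and APOH (42.9%) to group 2.

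With an offset for GC content in each library, the fold changes of APOE and APOA1 over SMI became 0.41 ± 0.26 (adjusted p = 0.355) and 0.25 ± 0.15 (adjusted p = 0.341), APOB was at -0.01, and no apolipoprotein gene passed. With the replicate number as a block in addition, sizes moved by at most 0.02 and APOE (0.41 ± 0.06, adjusted p = 1.23e-06), APOA1 (0.24 ± 0.08, adjusted p = 0.00951) and APOH (0.45 ± 0.17, adjusted p = 0.0326) passed. That fit called 6588 of all 16542 genes, and the offset alone called 1760. Over the IgG IP the offset kept APOE at 1.51 ± 0.30 (adjusted p = 0.0114), APOA1 at 1.46 ± 0.20 (adjusted p = 0.0032) and APOA2 at 0.74 ± 0.21 (adjusted p = 0.0402). For the IgG IP over SMI it moved APOA1 to -1.21 ± 0.20 (adjusted p = 0.00295) and APOE to -1.10 ± 0.30 (adjusted p = 0.0401), both lower in the IgG IP, and APOB no longer passed (-0.53, adjusted p = 0.148). The offset takes out any difference that goes with GC content, whatever its source, and it was chosen after the data were seen.

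**Figure D2:**
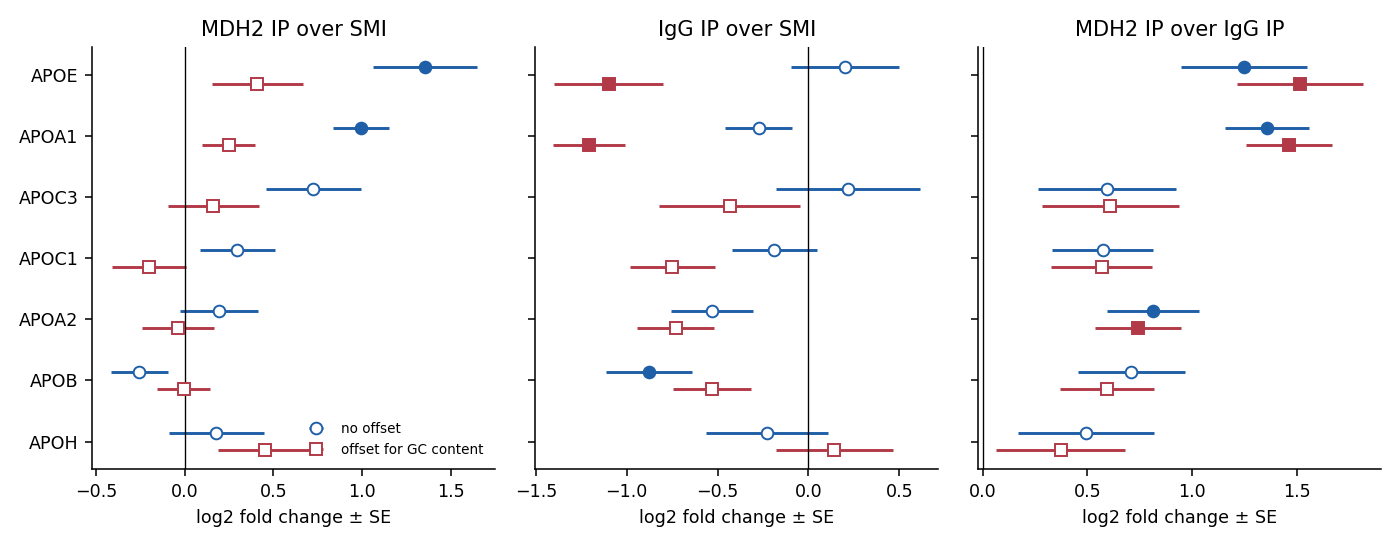
Log2 fold changes ± SE (n = 3 libraries a group) of the 7 measured genes in each comparison, without an offset (circles) and with an offset for the GC content of the mRNA in each library (squares). Filled symbols have an adjusted p of at most 0.05. For the MDH2 IP, APOE and APOA1 are filled over SMI without the offset alone and over the IgG IP with and without it, and for the IgG IP over SMI both are filled with the offset alone, at -1.10 and -1.21.

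To place the counts within the mRNAs, single windows were tested for enrichment, defined as a log2 fold change of at least 1 with an adjusted p of at most 0.05. The libraries were scaled to the tested windows, so a window value is relative to a different base than a gene value. Over SMI, 29 of 832 apolipoprotein windows were enriched in the MDH2 IP, 17 in APOE, 6 in APOA1, 5 in APOA2 and 1 in APOB, a share of 3.49% against 4.07% of all 51105 windows tested. There were 167 windows, or 20.1%, that were lower in the MDH2 IP, 165 of them in APOB, against 9.92% of all windows. No window of APOC3 or APOH had enough counts to be tested, and none of the 11 of APOC1 was called. The 29 became 0 when SMI replicate 1 was left out, 4 when SMI replicate 3 was, 5 and 10 when MDH2 IP replicate 1 or 2 was, and 46 with the replicate block. With the total counts as library sizes, which moved the median of all windows from 0.05 to 0.53, 82 were enriched and 16 lower.

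In APOE all 57 tested windows had a fold change above 0, and 14 of the 17 enriched windows lay in exon 4 (chr19:44908533-44909393), between codons 93 and 269. This exon encodes most of the mature protein, the lipid-binding region included. It also held most of the APOE exon counts, with means of 66.5% in the MDH2 IP and 64.0% in SMI. Its use relative to APOE as a whole did not pass (adjusted p = 0.989, edgeR exon test). Whether enriched windows are denser there than tested windows was not tested. W164 had 103, 109 and 70 counts in the MDH2 IP, 28, 41 and 22 in SMI, and 18, 8 and 7 in the IgG IP. All MDH2 IP libraries lay above all SMI libraries in raw counts, at a log2 fold change of 1.46 ± 0.28 (adjusted p = 0.00542). W160 had 69, 72 and 36 counts in the MDH2 IP, 12, 21 and 19 in SMI and 7, 7 and 3 in the IgG IP (1.59 ± 0.31, adjusted p = 0.00615). The other 3 enriched windows were W1 at the start of exon 1 and W43 and W44 in exon 2 (chr19:44906620-44906689), where the coding sequence begins and codons 1 to 15 encode part of the signal peptide. The APOE window with the most counts, W105 in exon 3 (codons 48 to 65), had 102, 142 and 65 counts in the MDH2 IP against 35, 92 and 39 in SMI, and at 0.75 ± 0.31 it did not pass. Towards the 3′ end of exon 4 the fold changes went down to 0.06.

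**Figure D3:**
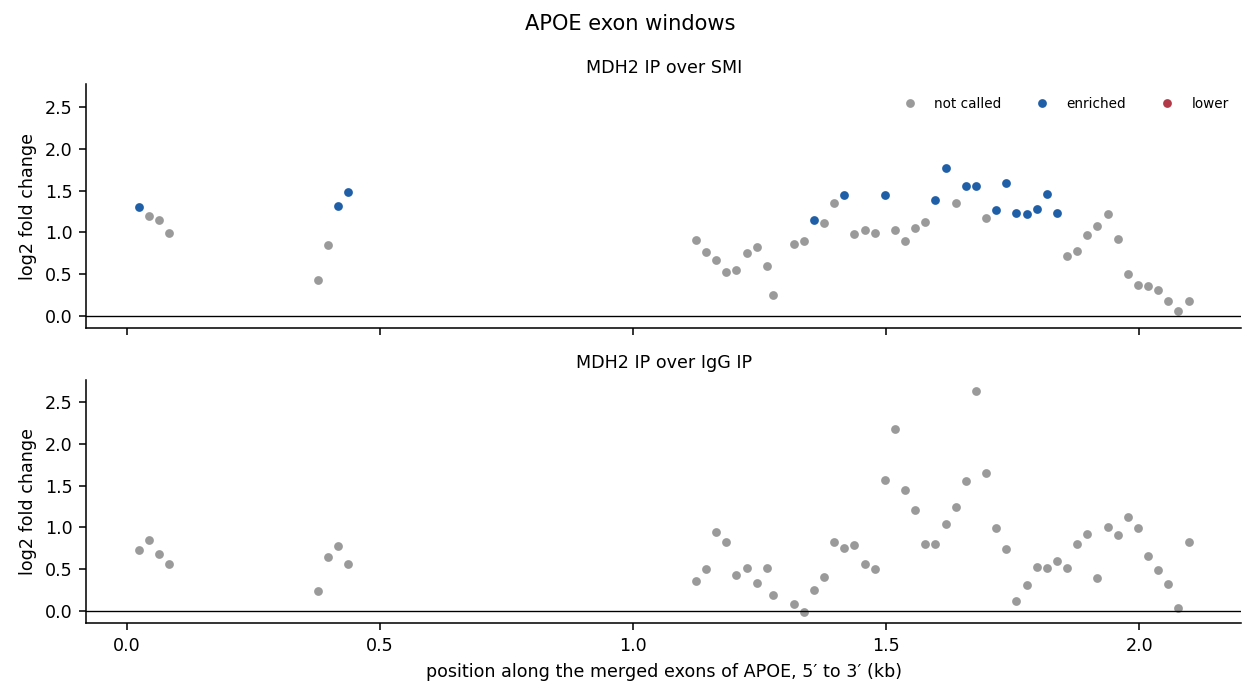
Log2 fold change of each tested exon window of APOE by its position along the merged exons (kb from the 5′ end) for the MDH2 IP over SMI (top) and over the IgG IP (bottom). Over SMI every point lies above 0 and most of the 17 enriched windows (blue) lie in the last exon, which also holds most of the APOE exon counts. Over the IgG IP none was called.

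APOA1 and APOA2 differed in where their enriched windows lay. In APOA1, 35 of 42 windows had a fold change above 0, and 5 of the 6 enriched ones were coding windows of exon 3, at codons 98 to 127 (chr11:116836231-116836320) and 164 to 187 (chr11:116836051-116836120), within the stretch that encodes the helical lipid-binding repeats. W17 had 30, 26 and 23 counts in the MDH2 IP, 4, 14 and 7 in SMI and 2, 4 and 1 in the IgG IP (1.496 ± 0.39 over SMI, adjusted p = 0.0477). The sixth, W93 in exon 1, could not be given a position. Exon 3 held a mean of 59.6% of the APOA1 exon counts in the MDH2 IP and 59.3% in SMI. In APOA2 the 5 enriched windows all fell in introns of the canonical transcript (chr1:161223118-161223227 and chr1:161223478-161223547) that are exonic in other transcripts. W46 had 21, 21 and 12 counts in the MDH2 IP and 5, 1 and 5 in SMI (2.08 ± 0.48, adjusted p = 0.0166), and it was the only one of the 29 with a log2 fold change of at least 2. The APOA2 window with the most counts, W55 across the start codon, held 373, 385 and 255 counts in the MDH2 IP and 295, 385 and 239 in SMI, at a log2 fold change of -0.03 ± 0.23. In APOA1 the window with the most counts, W80, also spans the start codon, with 91, 63 and 80 counts in the MDH2 IP and 34, 46 and 35 in SMI (0.87 ± 0.27, adjusted p = 0.0916). That of APOC1 was W98 (codons 27 to 43), with 20, 18 and 12 counts against 21, 23 and 22 (-0.57 ± 0.33). APOC3 W58 and APOH W805, the windows with the most counts of those genes, held 27 and 34 counts over all 9 libraries.

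Over the IgG IP no apolipoprotein window of 737 was enriched (edgeR), against 0.148% of all 30424 windows. At an unadjusted one-sided p under 0.05 and the same fold there were 28, and DESeq2 also called 0. Of the 29 windows enriched over SMI, 23 had a fold change above 0 over the IgG IP, with a median of 0.73, and the 5 in APOA2 were all below 0, W43 at -1.05. In these windows the IgG IP counts were mostly under 20 a library. The single window called lower, W2113 in APOB intron 1, had 14, 6 and 9 counts in the MDH2 IP and 12, 12 and 6 in the less deep IgG IP (-2.66 ± 0.47), where 4.77% of all windows were lower. With the total counts as library sizes 37 apolipoprotein windows were enriched over the IgG IP, and that scaling moved the median of all windows from 0.15 to 0.93.

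In the IgG IP over SMI, 8 apolipoprotein windows of 793 were enriched and 7 were lower, against 6.17% and 6.34% of all 26666 windows. The 8 were W2128 to W2130 in the 5′ UTR of APOB, W2092 and W2093 in APOB intron 2, W44 and W60 in APOA2, and W161 in APOE. APOA2 W44, APOB W2129 and APOE W161 were enriched over SMI in both immunoprecipitations, which is 10.3% of the 29 windows of the MDH2 IP and 37.5% of the 8 of the IgG IP. Only 18 of the 29 had enough counts to be tested in the IgG IP over SMI. All 18 had a fold change above 0 there, with a median log2 of 0.98, where the median of all tested windows was -0.18. Both lists and these fold changes rest on the same SMI libraries. Leaving out SMI replicate 1 or 3 left 0 of the 8 calls by number, SMI replicate 2 left 1, IgG IP replicate 1 left 2 and IgG IP replicate 2 left 5.

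APOB stood apart from the other genes by its lower windows. Over SMI 165 of its 683 tested windows, 24.2%, were lower in the MDH2 IP and 1 was enriched, with a median log2 fold change of -0.73 and 40 windows above 0. Exon 27 of the merged models (chr2:21005080-21012651, 7572 nt, 40.9% GC), the very long coding exon that holds codons 1406 to 3930, carried 150 of the 165. In this exon 376 of 378 windows had a fold change below 0, with a median of -0.98. The summed exon had 12645, 10300 and 6366 counts in the MDH2 IP and 14491, 19487 and 15979 in SMI, at -1.09 ± 0.15 on the scale of the exon fit. On that scale the 30 APOB exons ran from -1.09 to 0.52. Tested against APOB as a whole, that exon included, exon 27 was at -0.18 and did not pass (adjusted p = 0.853, edgeR exon test). Exon 27 took 46.1%, 46.8% and 46.8% of the APOB exon counts in the MDH2 IP. In SMI it took 54.9%, 55.7% and 56.4%, without overlap. The exon was thus set in large part against itself, so the test cannot decide whether it differs from the rest of APOB. The 150 became 56 when MDH2 IP replicate 1 was left out, 84 without MDH2 IP replicate 3, 58 without SMI replicate 1 and 86 without SMI replicate 2, with medians of the exon from -1.09 to -0.81 with any 1 library left out. With total counts as library sizes 16 windows of the exon were lower, and the median of -0.50 stood against 0.53 for all windows.

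Along exon 27 the fold changes formed a trough. The median over SMI was -0.47 before codon 1501, -0.81 for codons 1501 to 2000, -1.33 for codons 2001 to 2500, -1.23 for codons 2501 to 3000, -1.02 for codons 3001 to 3500 and -0.65 from codon 3501 on. The number of lower windows in these stretches was 0, 15, 53, 51, 28 and 3. The first stretch holds 16 windows, so its median rests on few. The lowest point was W444 with 3, 2 and 3 counts in the MDH2 IP, 14, 15 and 13 in SMI and 1, 0 and 1 in the IgG IP (-2.51 ± 0.51, adjusted p for lower = 0.00246), next to W445 with 5, 8 and 5 against 25, 28 and 30 (-2.34 ± 0.38, adjusted p for lower = 0.000217). These overlapping windows hold the CAA codon that the deaminase APOBEC1 turns into a stop codon in intestine, where the short form APOB-48 is made, in an AU-rich stretch. Hepatocytes make the full-length protein. At the other end, W286 had 26, 25 and 13 counts in the MDH2 IP and 24, 15 and 13 in SMI and was at 0.10 ± 0.37.

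Against the IgG IP 307 of the 378 windows had enough counts to be tested, 36 of 75 in codons 2001 to 2500 and 57 of 75 in codons 3001 to 3500. The 71 left out had a median of -1.36 over SMI and held 44 of the 150 lower windows, so the lowest part of the trough was in large part not measured against the IgG IP. In the 307 windows the median was -0.91 over SMI and -0.02 over the IgG IP, where 160 were below 0 and none was called, with medians of the stretches between -0.13 and 0.24. The difference between the stretches was not tested. The IgG IP over SMI had a median of -0.67 in this exon, with 343 of 378 windows below 0 and 6 lower. Within exon 27 the fold change over SMI and the GC content of the window correlated at r = 0.441 for the MDH2 IP and 0.335 for the IgG IP, as a description over windows that overlap.

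**Figure D4:**
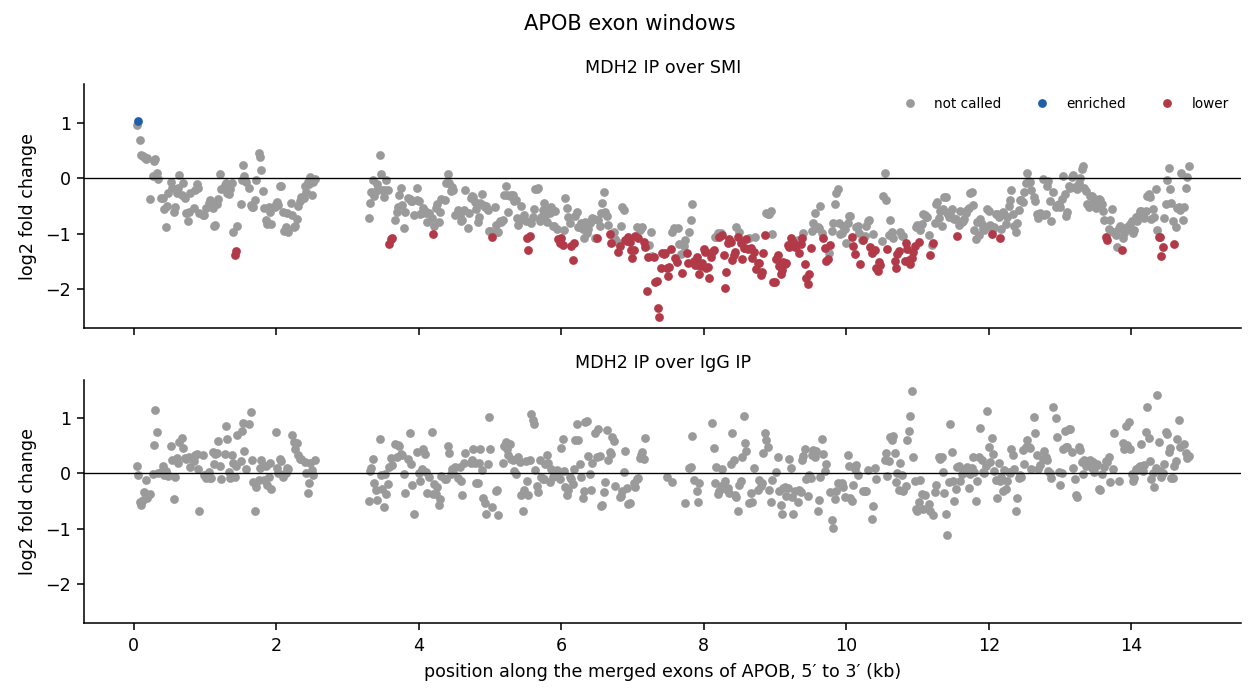
Log2 fold change of each tested exon window of APOB by its position along the merged exons (kb from the 5′ end) for the MDH2 IP over SMI (top) and over the IgG IP (bottom). Red windows are lower and the blue one is enriched. Over SMI the 150 lower windows of exon 27 form a trough in the middle of the mRNA, and the 307 windows of that exon tested over the IgG IP have a median of -0.02.

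The 5′ end of APOB went the other way. Exon 1 (chr2:21043864-21044073, 210 nt, 77.6% GC), which holds the 5′ UTR and the signal peptide codons, took 2.83%, 2.91% and 3.24% of the APOB exon counts in the MDH2 IP, 1.29%, 1.16% and 1.04% in SMI and 3.71%, 3.17% and 4.07% in the IgG IP. Neither immunoprecipitation overlapped with SMI. Each exon was tested against its gene as a whole, that exon included. Exon 1 was used more in the MDH2 IP than in SMI, by 0.94 on the natural log scale (adjusted p = 0.000561, edgeR exon test). It was the only one of 50 apolipoprotein exons to pass, where 0.727% of 54621 exons were used more and 0.183% less, and it was again the one exon to pass when any 1 library was left out (adjusted p from 0.00149 to 0.0208). With the replicate block exons 3, 11, 16 and 24 of APOB passed as well, each used more. Over the IgG IP exon 1 was at -0.21 relative to its gene, again on the natural log scale. None of 48 exons passed (edgeR, 0 at an unadjusted p under 0.05), against 0.133% used more and 0.210% used less of 39137. The one enriched APOB window over SMI, W2129 in the 5′ UTR (chr2:21043984-21044033, 80% GC), had 156, 124 and 90 counts in the MDH2 IP, 59, 54 and 44 in SMI and 43, 9 and 14 in the IgG IP, at 1.04 ± 0.25 over SMI and -0.04 over the IgG IP.

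Across the apolipoprotein windows as a whole, GC content and the log2 fold change of the MDH2 IP over SMI correlated at r = 0.729 (827 windows) and at 0.728 over the 278 windows that do not overlap. The median GC content was 72% in the enriched windows, 38% in the lower ones and 47.6% in the others. For the IgG IP over SMI r was 0.557 (790 windows), and for the MDH2 IP over the IgG IP 0.255 (732 windows). Within single genes r for the MDH2 IP over SMI was 0.554 in APOB, 0.312 in APOA1, 0.295 in APOE and 0.154 in APOA2. For the IgG IP over SMI it was 0.474 in APOB and 0.238 in APOA2 but -0.324 in APOA1 and -0.109 in APOE. For the MDH2 IP over the IgG IP it was 0.447 in APOA1 and 0.424 in APOE but -0.152 in APOB and -0.215 in APOA2, so the pooled values do not hold within every gene. The part of base composition in the fold changes of single windows was not tested. Of the printed windows those of APOE and APOA1 are rich in G and C, that of APOA2 has close to as many A and T, and the APOB ones are mostly A and T.

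**Figure D5:**
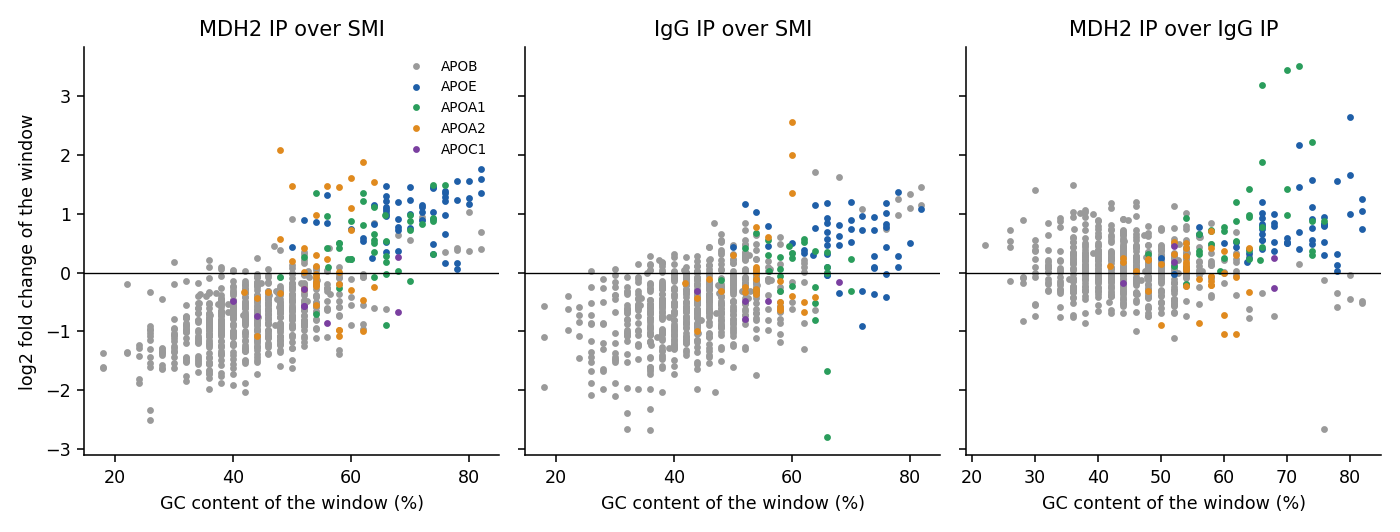
GC content (%) of each tested apolipoprotein window against its log2 fold change in each comparison, coloured by gene. For the MDH2 IP over SMI (r = 0.729) the APOE windows, with a median of 1.03, and the APOA1 windows, with a median of 0.51, lie above the APOB windows, with a median of -0.73, while the APOA1 median for the IgG IP over SMI is 0.07.

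To see how much of the counts lay outside the merged exons, the share of intron windows was taken for the 4 genes with at least 50 counts in every library. Introns of the canonical transcript that another transcript retains were counted as exon, among them the enriched windows of APOA2. The share therefore cannot separate spliced from unspliced RNA. In APOE introns gave 0.920%, 1.26% and 1.18% of the counts in the MDH2 IP, 2.35%, 1.93% and 2.01% in SMI, and 2.72%, 6.83% and 8.82% in the IgG IP. The MDH2 IP was thus below both controls in all libraries. In APOB the shares were 10.2%, 7.49% and 10.5% in the MDH2 IP against 7.10%, 4.78% and 7.28% in SMI, and in APOA2 3.08%, 2.01% and 1.89% against 1.61%, 1.26% and 1.09%, so that both were higher in the MDH2 IP than in SMI in all libraries. In the IgG IP they were at 10.2%, 16.3% and 19.1% for APOB and 2.79%, 4.01% and 2.24% for APOA2, with means above those of the MDH2 IP and overlapping ranges. APOA1 overlapped with SMI at 1.37% to 1.88% and lay below the IgG IP at 2.22% to 7.23%. With 3 libraries against 3 the exact two-sided permutation test cannot go below p = 0.1, and the 5 of 8 pairs without overlap had p = 0.1, or 0.16 after adjustment over the 8 pairs. Intron shares of other genes were not taken, so whether these differences are general to the libraries was not tested. APOC1, APOC3 and APOH had mean intron shares between 23.2% and 48.1% in the 3 groups at counts too low for a test.

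Of 47 other genes of lipoprotein metabolism, 35 were tested for the MDH2 IP over SMI, and 10 were higher and 2 were lower, where 16.4% and 17.9% of all genes were. Over the IgG IP 4 were higher and 3 lower of 32, against 4.64% and 7.77% of all genes, and in the IgG IP over SMI 9 were higher and 5 lower of 33, against 16.4% and 11.4%. Their median log2 fold change for the MDH2 IP over SMI was 0.35. Among the other apolipoproteins CLU (apolipoprotein J, a secreted chaperone) was higher both over SMI (1.03 ± 0.22, adjusted p = 0.00744) and over the IgG IP (1.26 ± 0.29, adjusted p = 0.0217). It was the only gene of the 47 that passed as higher in both, as APOA1 and APOE did.

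Among the assembly genes, MTTP, which loads lipid onto APOB, was at -0.29 ± 0.15 over SMI and higher over the IgG IP (0.87 ± 0.19, adjusted p = 0.02). MTTP was lower in the IgG IP over SMI (-1.07 ± 0.19). SAR1B, a GTPase of the coat that exports the particles, was lower over SMI (-0.99 ± 0.17, adjusted p = 0.00312), whereas DGAT1, which makes triglyceride (0.81 ± 0.16, adjusted p = 0.00608), and TM6SF2, which promotes lipidation (1.03 ± 0.22, adjusted p = 0.00746), were higher. For the IgG IP over SMI, SAR1B was also lower (-1.35 ± 0.21), and DGAT1 (1.41 ± 0.23) and TM6SF2 (1.21 ± 0.31) were also higher. For the MDH2 IP over the IgG IP they were at 0.45, -0.51 and -0.09, and none passed. In plasma remodelling, LCAT, which esterifies cholesterol on high-density lipoproteins, was higher over SMI (0.95 ± 0.19, adjusted p = 0.00548). LCAT was also higher in the IgG IP over SMI (1.32 ± 0.34), and for the MDH2 IP over the IgG IP it did not pass (-0.27 ± 0.31). LMF1, a chaperone of lipases, was higher over SMI (0.86 ± 0.19, adjusted p = 0.00959) but lower over the IgG IP (-2.25 ± 0.20, adjusted p = 0.000367). LMF1 was higher in the IgG IP over SMI (3.20 ± 0.17).

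Of the receptors and regulators, LRPAP1, a chaperone of the LDL receptor family, was higher over SMI (1.09 ± 0.12, adjusted p = 0.000603), and SORT1, a sorting receptor, was lower (-0.55 ± 0.14, adjusted p = 0.015). The IgG IP over SMI was likewise higher for LRPAP1 (1.65 ± 0.18) and lower for SORT1 (-0.56 ± 0.18). Over the IgG IP they were at -0.47 and 0.10, and neither passed. SCARB1, the receptor for high-density lipoproteins, was higher over SMI (0.40 ± 0.11, adjusted p = 0.0262) and lower over the IgG IP (-0.74 ± 0.17, adjusted p = 0.0208). SCARB1 was higher in the IgG IP over SMI (1.23 ± 0.16).

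Outside the 8 genes, the profile over the 9 libraries most like the mean of the apolipoprotein genes was that of NCSTN (r = 0.971), followed by BRPF3 (0.964), CLU (0.964), IMPDH2 (0.957) and SMCR8 (0.952), among 4819 protein-coding genes with a mean of at least 50 CPM. The 9 libraries fall into 3 groups, so these values describe the order of the groups as much as the libraries within them.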

How the data were processed

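The authors deposited raw cross-link counts per sliding window, 1 column for each of the 9 libraries. Per their methods and processing notes, reads were trimmed with cutadapt and mapped to hg38 with STAR, PCR duplicates were removed by molecular identifiers, and htseq-clip counted cross-link sites in 50-nt windows set 20 nt apart. The members and gene lists were chosen with earlier results of these data known. Groups came from the sample titles.

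Counts were summed per gene over all windows, introns included. A feature was tested where 3 or more of the 6 libraries in a comparison held 10 counts or more, with edgeR 4.0.16 (R 4.3.3, TMM scaling, quasi-likelihood test, Benjamini-Hochberg adjustment over all genes, windows or exons). Window p-values were one-sided, and each was multiplied by how many tested windows overlapped it. Exon use was tested with diffSpliceDGE, which sets an exon against its whole gene, and its differences are given in natural log units. CPM are after TMM scaling over all 9 libraries. Exon levels per kb use library totals. A site counted in up to 3 windows enters up to 3 times, so counts are not independent molecules and precision is taken from replicate spread alone. The gene, window and exon tests were tested on simulated data for the MDH2 IP over SMI, and the GC offset was not. Of simulated 4-fold changes the gene test recovered 89.5%, the window test 97.5% and the exon test 57.5%. Exons that did not pass may therefore still differ. Named pathway genes are the 12 with the smallest adjusted p among those passing over SMI or the IgG IP. Some of these are not reported here.

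Window positions and sequences were derived by matching window numbers to merged GENCODE 44 exons on GRCh38, and 92.3% to 100% of the windows of each gene matched. Replicate numbers came from the sample titles. Same-numbered MDH2 IP and SMI libraries deviated together over genes (r from 0.13 to 0.50), so the block is given beside those results. For the IgG IP this held in replicates 2 and 3 (0.24 and 0.29 with the MDH2 IP, 0.27 and 0.32 with SMI). It did not hold in replicate 1 (-0.03 and 0.03). With the block APOB also passed as higher over the IgG IP (0.76, adjusted p = 0.00241, edgeR), in a fit that called 4329 of all 15491 genes. Replicates of a group differed by 2.77 to 11.6 times the sampling variance (chi-square per degree of freedom), so none was counted as a repeat of another. Alternatives were other library scalings, filters and tools (DESeq2 1.42.0), each library left out, the replicate block and an offset for the GC content of the mRNA (natural spline, 4 degrees of freedom).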

Additional observations from a re-analysis of the deposited data

How the results depend on the processing

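For the MDH2 IP over SMI the 2 gene calls became 5 with the replicate block and 0 with the GC offset, and stayed at 2 without any 1 library. Over the IgG IP the 3 calls became 0 with exon windows only, stayed at 3 with exon windows and the scaling of all windows (chosen after seeing the data), and became 1 to 3 without 1 library. For the IgG IP over SMI the 1 call became 2 with total counts, the replicate block, no filter or the GC offset, 5 with the GC offset and the replicate block, and 0 to 1 without 1 library. Of 378 values for single genes, 324 kept direction and call, 18 lost a call, 19 gained one and 17 changed sign, none of these called at first. For the MDH2 IP over SMI these were APOA2 (-0.17), APOC1 (-0.11) and APOH (-0.011) with exon windows only, APOH between -0.019 (without SMI replicate 3) and 0.39 without 1 library, and APOC1 and APOA2 with the GC offset (-0.20 and -0.039) and with the replicate block added (-0.21 and -0.032). For the IgG IP over SMI they were APOC3 with exon windows only (-0.26, or -0.45 with the scaling of all windows) and between -0.0099 (without SMI replicate 3) and 0.44 without 1 library, and with the GC offset APOC3 (-0.43), APOE (-1.10) and APOH (0.14), or -0.47, -1.12 and 0.15 with the replicate block added.

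The 29 windows enriched in the MDH2 IP over SMI became 82 with total counts, 11 with at least 5 counts in 3 libraries, 46 with the replicate block, 11 with DESeq2, 45 without multiplication for overlap, 1 at a log2 fold change of at least 2, and 0 to 33 without 1 library. The 167 lower windows, whose alternatives were chosen after seeing the data like the GC offset, became 16 with total counts, 109 with DESeq2, 3 at a log2 fold change of at most -2, and 59 to 168 without 1 library. Over the IgG IP the 0 became 37 with total counts and stayed at 0 without any 1 library. The 8 of the IgG IP over SMI became 1 with total counts, 5 with DESeq2, 15 without multiplication for overlap, 2 at a log2 fold change of at least 2, and 0 to 6 without 1 library. The 1 exon used differently over SMI became 5 with the replicate block, and 5 pairs without overlap in intron share stayed between 5 and 7. Over all genes the 5861 calls over SMI became 9675 with the replicate block and 1760 with the GC offset, the 1922 over the IgG IP became 4329 with the block and 264 with exon windows only, and the 2080 enriched windows over SMI became 3819 with the block. The block changed no other apolipoprotein count by over 1.5 times. Fits of windows with no filter on low counts were not run. Unless construction shows it (fewer libraries, another filter, a stricter fold), the cause was not tested. Low counts in the IgG IP limit which windows could be compared with it, and windows of APOC3 and APOH were below the count minimum.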
